A study of Mus musculus with 14 samples.

Results

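The genes described here are 10 members of the EGR, IER and KLF families, all early response genes that cells switch on quickly after a stimulus: Egr1, Egr2, Egr3, Ier2, Ier3, Ier5, Klf2, Klf4, Klf6 and Klf10. They were chosen by gene symbol, each matched 1 row, and together they are 10 of the 55357 genes in the files. Their RNA was measured by sequencing of polyadenylated RNA from livers of C57BL/6 male mice, aged 5 to 6 weeks before a week of acclimatisation. The model group (acute liver failure, n = 8) had received 10 µg/kg LPS (lipopolysaccharide, from the outer membrane of Gram-negative bacteria) and 300 mg/kg D-GalN (D-galactosamine, which depletes uridine nucleotides in hepatocytes and makes them sensitive to LPS), both into the peritoneum. The control group (n = 6) had received normal saline. All livers were taken 24 h after injection, so there is a single time point, and no group received LPS or D-GalN alone. Each library is a sample with its own label, but no label says that each is a separate animal, and the p-values therefore rest on the spread between libraries, which may be technical. Total counts in genes ranged from 10329469 to 16639972 per model library and from 7914120 to 14463540 per control library. Levels are given as CPM, read counts scaled to library size. As a check of the liver label, albumin (Alb) was at 40600 to 62900 CPM in model livers and 20200 to 48600 CPM in control livers.

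EGR proteins are zinc finger transcription factors. Their genes are switched on by growth factor, stress and inflammatory signals that run through MAP kinases to the serum response factor SRF and its ternary complex partners, and the NAB proteins hold their activity in check. The IER genes share a mode of induction more than a structure: Ier2 and Ier5 encode related nuclear proteins, and Ier3 encodes an unrelated small protein that acts on cell survival under NF-kB and p53 control. KLF proteins bind GC-rich and CACCC sequences through zinc fingers. In the liver, KLF2 is best known from endothelial cells, KLF6 from injured hepatocytes and stellate cells, and KLF10 as a TGF-beta inducible factor with a daily rhythm.

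Of the 10 genes, all passed the low-count filter, 9 rose in model livers and none fell, by edgeR's quasi-likelihood test at an adjusted p under 0.05 over all 12915 genes tested. In the same test 26.6% of all genes tested were higher, and 47.9% were called in either direction. Each of the 9 was at least 2-fold higher, as were 20.3% of all genes tested. CPM ranges did not overlap between the groups for 8 of the 10, against 14.6% of all genes tested for which every model library was above every control library. The exceptions were Klf4, which rose with overlapping ranges, and Klf10, which was not called. The median log2 fold change of the 10 was 4.13, from 0.45 for Klf10 to 7.41 for Ier3, against a median of 0.01 over all genes tested. Summed over the 10 genes, the lowest, median and highest libraries were at 449.9, 834.9 and 1279 CPM in model livers, against 41.0, 53.2 and 65.9 CPM in control livers. The makeup of that sum differed too: Egr1 alone made up 20.7% to 55.6% of it in model livers and 3.93% to 16.3% in control livers.

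**Figure D1:**
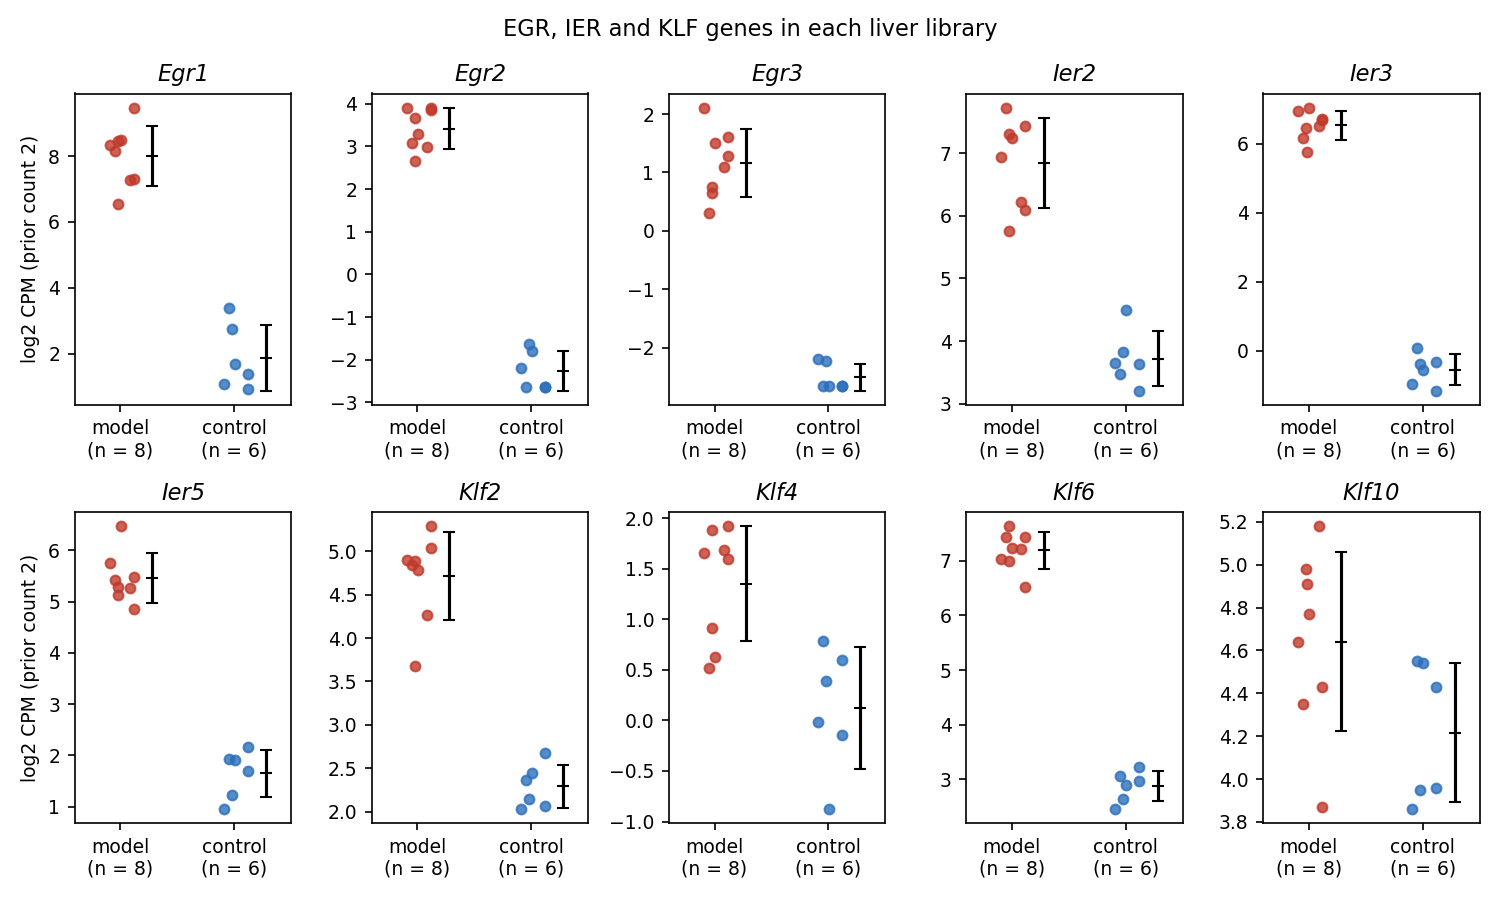
Log2 CPM (prior count 2) of the 10 genes, 1 panel a gene with its own vertical scale; points are libraries (red, 8 model; blue, 6 control) and black bars are mean and SD. The groups are apart in 8 panels, and overlap for Klf4 and Klf10.

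Egr1 (ENSMUSG00000038418.8, chromosome 18) encodes the family's founding member, a factor of liver injury and regeneration. By mean CPM it was the highest of the 10 genes in model livers, although in model 8 Klf6 was above it, at 128 CPM. Egr1 was at 93.1, 303.2 and 710.9 CPM in the lowest, median and highest model library, against 1.74, 2.76 and 10.4 CPM in control livers. Model 2 was highest and model 8, model 7 and model 4 were lowest among model livers (93.1, 153 and 156 CPM), yet model 8 was still above control 5, the highest control. The mean was 304.0 ± 193 CPM in model livers (SD, n = 8) and 4.36 ± 3.44 CPM in control livers (SD, n = 6), a log2 fold change of 6.11 (SE 0.59, edgeR adjusted p = 1.72e-07). Egr1 was thus both the most abundant of the 10 by mean CPM and the most uneven among model livers, with a highest library 7.64 times the lowest. That ratio rests largely on model 2, since the next highest model liver, model 1, was at 358 CPM.

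Egr2 (ENSMUSG00000037868.16, chromosome 10) encodes a factor of myelinating and immune cells. Its lowest, median and highest libraries were at 6.14, 11.1 and 14.9 CPM in model livers, against 0, 0.0296 and 0.164 CPM in control livers, where 3 of 6 libraries had no count. The groups were far apart: 1100 counts were found in the model libraries together and 5 in the control libraries, which scaled to library size is a ratio of 163.9 (95% interval 70.0 to 505.8, exact, counting error only). The fitted log2 fold change was 7.20 (SE 0.48, edgeR adjusted p = 1.72e-09), and 7.96 without control 6, which held 3 of the 5 control counts.

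Egr3 (ENSMUSG00000033730.5, chromosome 14), a close relative that is itself switched on in activated lymphocytes and other stimulated cells, was at 1.08, 2.12 and 4.16 CPM in the lowest, median and highest model library, against 0, 0 and 0.0593 CPM in control livers. Only control 3 and control 6 held a count, 1 each, while every model library had at least 11. The ratio of 219 to 2 counts, scaled to library size, was 81.6 (95% interval 22.3 to 677.8), and the edgeR adjusted p was 1.35e-07. Control livers therefore held all 3 EGR transcripts at low levels or near the limit of detection, and in model livers Egr1 was far above the other two in CPM.

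Ier2 (ENSMUSG00000053560.6, chromosome 8) encodes a nuclear protein of the early growth response. In the lowest, median and highest library it was at 53.9, 137.6 and 211.5 CPM in model livers, against 9.07, 12.3 and 22.5 CPM in control livers, with no overlap. Model 8, model 4 and model 7 were the lowest model livers, as for Egr1, at 53.9, 68.1 and 74.3 CPM, and model 5 the highest. The log2 fold change was 3.23 (SE 0.34, edgeR adjusted p = 5.28e-07), a 9.38-fold rise from the highest control level of the 3 IER genes.

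Ier3 (ENSMUSG00000003541.7, chromosome 17), also known as IEX-1, encodes a regulator of apoptosis and of its own inducer NF-kB. It was at 53.5, 96.2 and 131.8 CPM in the lowest, median and highest model library, against 0.289, 0.558 and 0.906 CPM in control livers. This was the largest change of the 10, at a log2 fold change of 7.41 (SE 0.32, edgeR adjusted p = 2.42e-11), the 80th highest of 12915 genes. The highest model liver, model 1, was only 2.46 times the lowest, model 6, so the rise was more even than that of Egr1.

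Ier5 (ENSMUSG00000056708.6, chromosome 1) encodes a relative of Ier2 that acts with the heat shock factor HSF1. It was at 28.8, 40.7 and 88.5 CPM in the lowest, median and highest model library, against 1.78, 3.34 and 4.35 CPM in control livers, and the ranges did not overlap. Model 1 stood above the other model livers, the next of which, model 3, was at 54.0 CPM. The log2 fold change was 3.91 (SE 0.30, edgeR adjusted p = 1.08e-08).

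Klf6 (ENSMUSG00000000078.8, chromosome 13), a factor induced in injured hepatocytes and activated stellate cells, rose most of the 4 KLF genes. It was at 91.7, 149 and 198.6 CPM in the lowest, median and highest model library, against 5.33, 7.53 and 9.17 CPM in control livers. Its model livers were the most even of the 10 genes, with an SD of 22.2% of the mean. The log2 fold change was 4.35 (SE 0.23, edgeR adjusted p = 1.15e-10), a 20.4-fold rise.

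Klf2 (ENSMUSG00000055148.8, chromosome 8) encodes the shear stress factor of endothelial cells, which also keeps T cells quiescent. It was at 12.7, 29.0 and 38.9 CPM in the lowest, median and highest model library, against 3.91, 4.65 and 6.26 CPM in control livers. The groups did not overlap, although model 8 and model 7 were low at 12.7 and 19.1 CPM against 27.3 to 38.9 CPM in the other 6 model livers. Its log2 fold change was 2.51 (SE 0.25, edgeR adjusted p = 2.36e-07), and 2.76 without model 7 and model 8.

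Klf4 (ENSMUSG00000003032.9, chromosome 4), a factor of epithelial differentiation and pluripotency that is also found in endothelial and myeloid cells, was a low transcript in both groups. The lowest, median and highest libraries were at 1.27, 2.93 and 3.62 CPM in model livers, against 0.385, 0.989 and 1.57 CPM in control livers. Model 5 and model 1, at 1.27 and 1.39 CPM, lay below control 5, and the other 6 model livers lay above all controls. The log2 fold change was 1.32 (SE 0.34, edgeR adjusted p = 0.00356), so this 2.50-fold rise rests on 265 model and 78 control counts in all.

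Klf10 (ENSMUSG00000037465.11, chromosome 15) was the 1 gene of the 10 that was not called. It was at 14.4, 26.0 and 36.2 CPM in the lowest, median and highest model library, against 14.3, 18.4 and 23.2 CPM in control livers. Model 4, model 5 and model 2 lay within the control range, and model 7 and model 8, the livers lowest in Klf2, had the highest Klf10 at 36.2 and 31.4 CPM. The log2 fold change was 0.45 (SE 0.22) and missed the threshold with an edgeR adjusted p of 0.0934, which does not show that the level was the same. Without model 4, its log2 fold change was 0.55 and it was called (adjusted p = 0.0338).

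**Figure D2:**
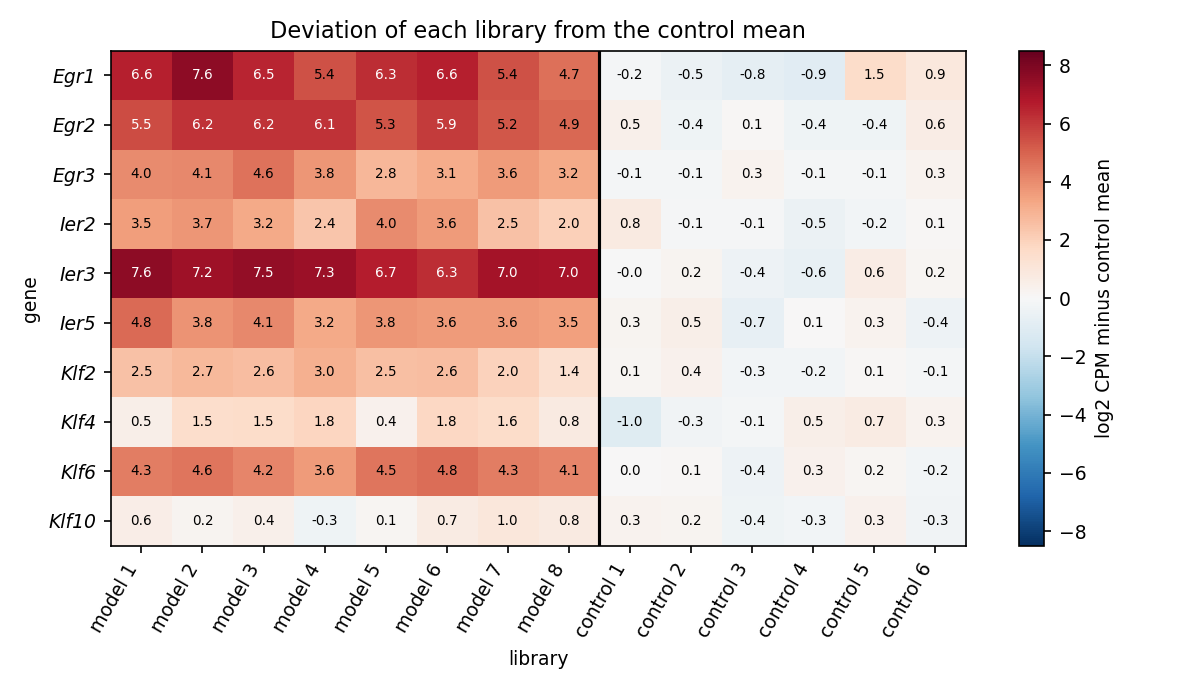
Log2 CPM (prior count 2) of each gene in each library minus that gene's control mean, with the 8 model libraries left of the line and the 6 control libraries right of it; colour and cell text give the same value. Model cells are pale for Klf4 (0.396 to 1.8) and Klf10, and for Klf2 in model 8 (1.39) and model 7 (1.98). All other model values are at least 2.04. For Egr2 and Egr3 the differences are held down by the prior count, since control counts were at or near 0.

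No single model liver was high in all 10 genes. Model 2 was highest for Egr1 and Egr2, model 1 for Ier3 and Ier5, model 4 for Klf2 and Klf4, and models 3, 5, 6 and 7 for 1 gene each. Model 8 was lowest for 4 genes (Egr1, Egr2, Ier2 and Klf2) and highest for none, and model 4 was lowest for 3 (Ier5, Klf6 and Klf10). With every gene centred on its mean over the 8 model libraries, Egr2 and Klf2 had the most similar profiles of the 45 pairs, at a root mean square distance of 0.24 log2 units, and Egr1 and Klf10 the least similar, at 1.01. Model 7 and model 8 also differed from the other model livers outside these genes: the cytokine gene Tnf was at 78.3 and 91.1 CPM there, against 10.5 to 21.4 CPM in the other 6. The log2 fold change without these 2 libraries was 6.42 for Egr1, 1.42 for Klf4 and 0.34 for Klf10.

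Within each family, the log2 ratio of 2 genes was compared between the groups by a two-sided exact permutation test of the group labels, for 12 pairs. The smallest p this test can give is 0.000333. Ier3 was near Ier2 in model livers and far below it in control livers: the log2 ratio of Ier3 to Ier2 was -0.32 ± 0.90 in model livers (SD, n = 8) and -4.27 ± 0.57 in control livers (SD, n = 6), a difference of 3.95 (exact permutation p = 0.000333, 0.000666 adjusted over the 12 pairs). The ratio of Ier3 to Ier5 differed by 3.27 with the same p-values. For Ier5 to Ier2 the difference of 0.68 missed the threshold (exact permutation p = 0.0676, adjusted 0.077).

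Among the KLF genes, Klf6 rose more than each of the other 3. The log2 ratio of Klf6 to Klf10 was 2.55 ± 0.40 in model livers (SD, n = 8) and -1.34 ± 0.31 in control livers (SD, n = 6), a reversal of their order in CPM, with a difference of 3.88. The differences were 3.08 for Klf6 to Klf4 and 1.89 for Klf6 to Klf2, and all 3 had an exact permutation p of 0.000333 (0.000666 adjusted), higher in 8 of 8 model livers than in any control. Klf2 rose more than Klf10 (difference 1.99, adjusted exact permutation p = 0.00114) and than Klf4 (1.19, adjusted 0.012), while for Klf4 against Klf10 the difference of 0.80 missed the threshold (exact permutation p = 0.0706, adjusted 0.077).

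For the EGR genes, 2 of the 3 differences changed sign or lost their call with another prior count. With a prior count of 2, the ratio of Egr2 to Egr1 differed by -0.45 (exact permutation p = 0.341), but with a prior count of 0.5 it differed by 0.91, and the difference for Egr1 to Egr3 was 2.47 (adjusted exact permutation p = 0.0015) with the first prior count and 0.89 (adjusted exact permutation p = 0.145) with the second. The difference for Egr2 to Egr3 was 2.02 (adjusted exact permutation p = 0.000666) with the first and 1.80 (adjusted exact permutation p = 0.00285) with the second, and it kept its call in all 16 alternatives. Control counts behind it were 5 for Egr2 and 2 for Egr3, and the log2 ratio was 0 in controls 2, 3, 4 and 5. The prior count thus largely set the control side here too, and the test mainly shows that Egr2 was above Egr3 in model livers. The edgeR log2 fold changes of Egr2 and Egr3, 7.20 (SE 0.48) and 5.96 (SE 0.56), were not compared by a test.

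**Figure D3:**
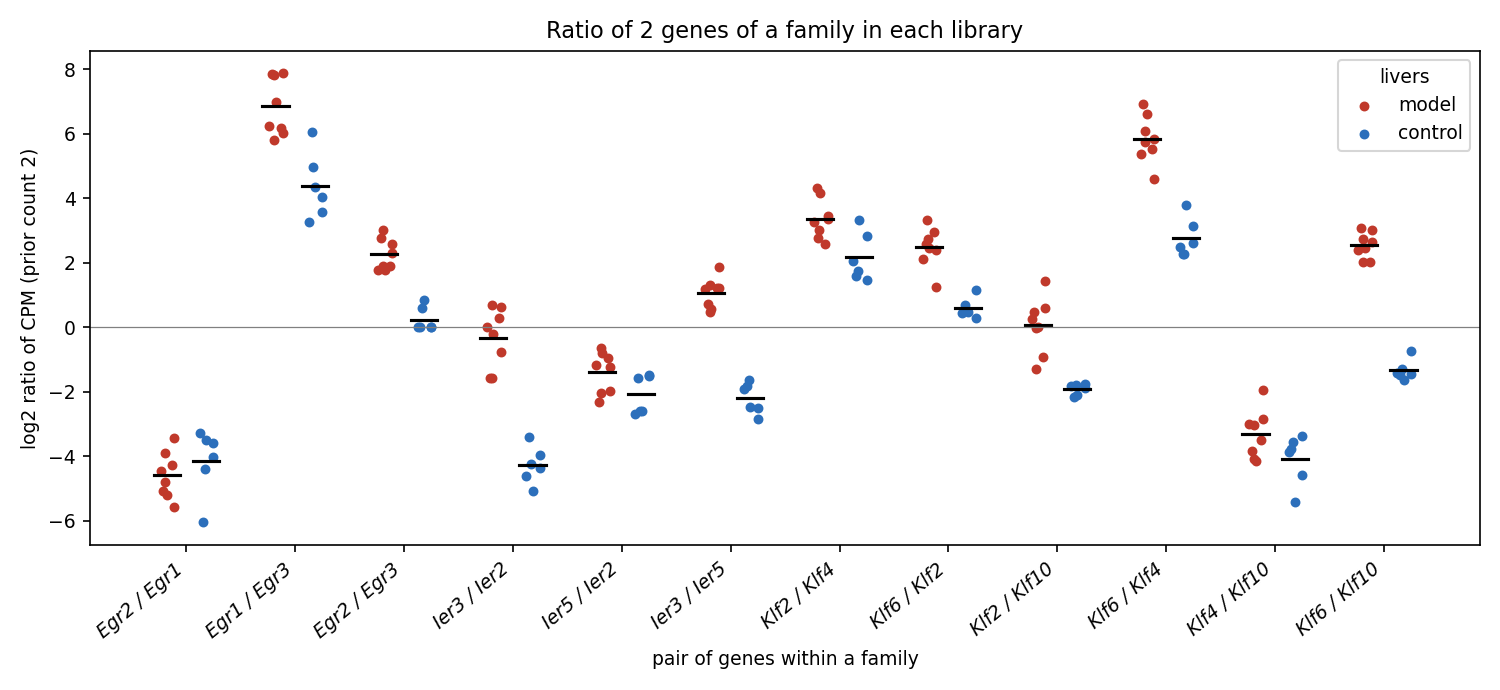
Log2 ratio of CPM (prior count 2) for the 12 pairs of genes within a family; points are libraries (red, model, n = 8; blue, control, n = 6) and black lines are group means. The model points lie clear of the control points for 7 pairs, among them Ier3 to Ier2 and Klf6 to Klf10, and overlap for 5, among them Ier5 to Ier2.

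Set per kilobase of exon, the order of the genes also differed between the groups. In model livers the median levels were 90.4 CPM per kilobase for Ier2, 85.0 for Ier3, 67.6 for Egr1, 33.9 for Klf6, 15.7 for Klf2, 12.4 for Ier5, 6.21 for Klf10, 3.27 for Egr2, 0.961 for Klf4 and 0.48 for Egr3. The first 3 are not separated by their spread: Ier2 was above Ier3 in 3 of 8 model livers, and Ier3 above Egr1 in 5 of 8. Klf2 was above Ier5 in 4 of 8, and each other gene was above the next in 7 or 8 of 8. In control livers Ier2 led with a median of 8.11 CPM per kilobase, followed by Klf10 at 4.41, Klf2 at 2.52 and Klf6 at 1.72, each above the next in 6 of 6 livers. Exonic lengths join all annotated transcripts of a gene, from an annotation of build GRCm38, while the counts were made on GRCm39.

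Stretches of 250 bases before the annotated start were in the RefSeq table supplied (GRCm38.p6) for 6 of the 10 genes. The 5 shown were picked by their rises, to set genes with large ones (Egr2, Ier3 and Klf6) beside KLF genes with smaller ones (Klf2 and Klf4). The stretch of Ier5 is not shown. For Egr2, which has 5 starts in the table, the stretch before the most upstream is given. Capitals mark matches on either strand to the NF-kB consensus, to the EGR motif GCGNGGGCG, to TGACG, the core of the CRE motif, and to CCAAT.
Egr2, GRCm38.p6 chr10:67535249-67535498, plus strand: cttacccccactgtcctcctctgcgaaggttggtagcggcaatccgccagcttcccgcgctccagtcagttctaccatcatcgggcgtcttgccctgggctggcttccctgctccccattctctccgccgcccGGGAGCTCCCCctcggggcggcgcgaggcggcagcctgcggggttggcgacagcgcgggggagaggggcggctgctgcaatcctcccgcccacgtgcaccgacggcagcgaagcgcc
Ier3, GRCm38.p6 chr17:35821463-35821712, plus strand: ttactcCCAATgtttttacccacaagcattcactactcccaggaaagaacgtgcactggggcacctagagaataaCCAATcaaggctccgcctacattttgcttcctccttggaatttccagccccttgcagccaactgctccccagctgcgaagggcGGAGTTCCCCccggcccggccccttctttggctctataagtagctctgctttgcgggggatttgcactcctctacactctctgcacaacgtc
Klf6, GRCm38.p6 chr13:5861239-5861488, plus strand: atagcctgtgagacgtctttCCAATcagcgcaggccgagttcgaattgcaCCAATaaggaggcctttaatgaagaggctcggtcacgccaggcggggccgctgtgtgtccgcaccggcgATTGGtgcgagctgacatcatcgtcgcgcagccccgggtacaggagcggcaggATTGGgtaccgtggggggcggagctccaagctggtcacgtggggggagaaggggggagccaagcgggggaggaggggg
Klf2, GRCm38.p6 chr8:72318812-72319061, plus strand: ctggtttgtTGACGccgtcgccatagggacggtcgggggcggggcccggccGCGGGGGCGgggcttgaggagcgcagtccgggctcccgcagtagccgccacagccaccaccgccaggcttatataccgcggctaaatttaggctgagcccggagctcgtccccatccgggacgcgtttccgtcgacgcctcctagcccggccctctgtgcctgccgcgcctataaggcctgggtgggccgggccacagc
Klf4, GRCm38.p6 chr4:55532476-55532725, minus strand: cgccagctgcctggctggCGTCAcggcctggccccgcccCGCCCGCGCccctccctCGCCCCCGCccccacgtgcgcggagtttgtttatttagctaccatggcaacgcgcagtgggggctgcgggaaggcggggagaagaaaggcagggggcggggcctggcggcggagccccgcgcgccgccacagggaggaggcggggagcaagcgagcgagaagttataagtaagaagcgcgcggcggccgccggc
An NF-kB match lies in the Egr2 stretch (its first base 117 bases before the start, overlapping a second match 1 base on) and in the Ier3 stretch (92 bases before). The stretches of Klf6, Klf2, Klf4 and Ier5 hold none. Of 32851 such stretches in the table, 7.25% hold one. The EGR motif matched once in Klf2 and at 2 places in Klf4, against 4.7% of all stretches that hold it. Both also hold 1 TGACG match, found in 17.8% of all stretches. Klf6 holds 4 CCAAT matches and Ier3 and Ier5 2 each, with 33.8% of all stretches holding at least 1. The GC box GGGCGG was in all 6 stretches, Ier5 included, against 32.7% of all, and its matches overlap the EGR motif in Klf2 and Klf4 and the NF-kB match in Ier3. CACCC, a KLF binding sequence, was in 1 of the 6, Klf2 (19 bases before the start), against 52% of all. The CArG box, bound by SRF, the AP-1 motif TGANTCA and TATAAA had no match in any of the 6, which says only that these letters are not in these windows. GC content was 71.2% for Egr2, 54.4% for Ier3, 64.8% for Klf6, 71.2% for Klf2 and 74% for Klf4, against a median of 52.4% over all stretches. These matches describe the sequence and were not tied to binding.

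Relatives of the 10 genes moved in both directions. The list held 21 relatives (other EGR, KLF and SP genes, Ier5l, Ier3ip1 and Wt1), of which 14 were tested. Among these, 5 rose and 2 fell, while 26.6% of all genes tested were called higher and 21.3% lower, so the share of relatives called, 7 of 14, was near the 47.9% of all genes. Their median log2 fold change was 0.55, against 0.01 over all genes tested. Klf7, a ubiquitous family member, was at 13.8 ± 4.89 CPM in model livers (SD, n = 8) and 1.98 ± 0.779 CPM in control livers (SD, n = 6), a log2 fold change of 2.79 (SE 0.32, edgeR adjusted p = 1.38e-06). Klf3, a repressor of the family, rose by 1.54 (SE 0.33, edgeR adjusted p = 0.00085) and Klf11, the closest relative of Klf10, by 0.86 (SE 0.27, edgeR adjusted p = 0.0141). Klf15, a regulator of amino acid and glucose metabolism in liver, fell to 34.2 ± 19.9 CPM in model livers, against 102.2 ± 26.3 CPM in control livers (log2 fold change -1.58, SE 0.32, edgeR adjusted p = 0.000546). The other gene that fell was Klf1, the erythroid factor (log2 fold change -2.29, SE 0.38), named here for its direction after its values were seen.

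**Figure D4:**
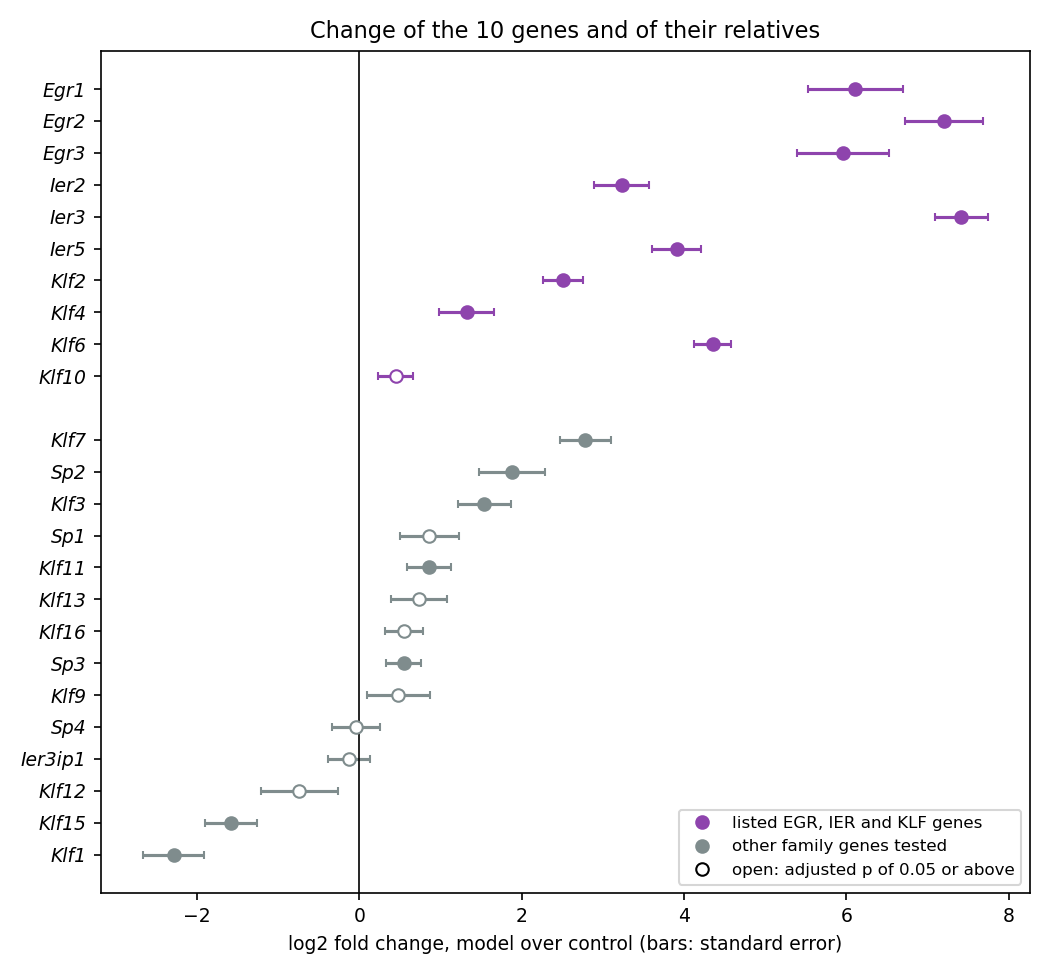
Log2 fold change, model over control, with standard error, for the 10 genes (purple) and the 14 relatives tested (grey); filled points had an adjusted p under 0.05. Klf10 is the only open point among the 10, and the relatives spread from Klf1 at -2.29 to Klf7 at 2.79.

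Genes upstream of the EGR family and partners in its response were mixed. Of 11 genes listed as NAB corepressors, SRF and its cofactors and shared early targets, 6 rose and 1, Elk3, fell (named for its direction). Over all genes tested, 26.6% were higher and 21.3% lower. The list's median log2 fold change was 0.91. Srf itself rose by 2.08 (SE 0.35, edgeR adjusted p = 9.86e-05), to 23.8 ± 14.3 CPM in model livers against 5.57 ± 1.92 CPM in control livers. The early targets Gadd45b, a stress sensor (log2 fold change 6.65, SE 0.47), and the matricellular genes Ccn1 (4.42, SE 0.32) and Ccn2 (3.75, SE 0.30) rose more. The EGR corepressor genes Nab1 and Nab2 were not called, at log2 fold changes of 0.37 (SE 0.19, edgeR adjusted p = 0.115) and -0.08 (SE 0.21, adjusted p = 0.77). They are named after their values were seen. The AP-1 genes, whose products act beside EGR factors, rose in 8 of 8 cases, among them Jun at 234 ± 105 CPM in model livers and 6.18 ± 2.94 CPM in control livers (log2 fold change 5.23, SE 0.42) and Junb (4.79, SE 0.40).

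The kinase cascade and MEF2 factors that drive Klf2 in endothelial cells moved in both directions. Of 8 listed genes 7 were tested, and of these 4 rose and 1 fell, against 26.6% higher and 21.3% lower over all genes tested. The list's median was 0.90 on the log2 scale. Map2k5, the kinase that activates ERK5, fell to 4.03 ± 0.701 CPM in model livers, against 13.1 ± 2.10 CPM in control livers (log2 fold change -1.71, SE 0.19, edgeR adjusted p = 6.97e-07). The factors Mef2d (1.13, SE 0.33) and Mef2a (0.90, SE 0.23) and the upstream kinase Map3k3 (1.20, SE 0.31) rose. Mapk7, which encodes ERK5 itself, rose by 2.18 (SE 0.39, edgeR adjusted p = 0.000172), the largest change of the list and opposite to that of Map2k5. It stayed under 5 CPM in both groups and is named after its values were seen.

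Among endothelial genes that KLF2 and KLF4 are known to control, 11 were listed and 10 tested. Of these, 8 rose and 1 fell, against 26.6% higher and 21.3% lower over all genes tested. The list's median log2 fold change was 4.21, and the genes that rose include known induced targets and known repressed ones. Thbd, thrombomodulin, an induced target, was at 57.2 ± 14.1 CPM in model livers and 1.79 ± 0.60 CPM in control livers (log2 fold change 4.97, SE 0.28, edgeR adjusted p = 2.63e-10). Sele, E-selectin, a target that KLF2 represses, had 4927 counts in model and 3 in control libraries, 1223 times as much after scaling to library size (95% interval 418.4 to 5935). Edn1, endothelin-1, also repressed by KLF2, rose by 5.43 (SE 0.40, edgeR adjusted p = 6.4e-09), and the protease gene Adamts4 had 2944 model and 6 control counts, 365.5 times as much (95% interval 167.7 to 996.9). Tek, the angiopoietin receptor, fell by 1.19 (SE 0.32, edgeR adjusted p = 0.00506) and is named for its direction.

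These are bulk livers, so more cells of a type and more RNA per cell cannot be told apart. The counts of markers that rose or fell stand beside 26.6% higher and 21.3% lower over all genes tested. All 11 neutrophil markers rose, with summed levels of 1364 to 3009 CPM in model livers and 4.62 to 16.6 CPM in control livers, where Ly6g was at 0 in all 6. Of 9 monocyte and macrophage markers, 8 rose, with summed levels of 937.4 to 1372 CPM in model and 327.2 to 770.9 CPM in control livers. Fn1, the marker not called, weighed heavily in this sum, at 204.7 to 895.9 CPM in model and 66.9 to 649.3 CPM in control livers. It was picked out after its values were seen. Of 9 Kupffer cell markers 3 rose and 3 fell (284.9 to 605.2 CPM in model, 272.8 to 438.6 CPM in control), and of 10 sinusoidal endothelial markers 3 rose and 3 fell (213.8 to 418.5 CPM in model, 151.0 to 214.1 CPM in control). Single genes also weighed heavily in the Kupffer and endothelial sums, and they were picked out after their values were seen. Without Marco, a scavenger receptor gene, the other 8 Kupffer markers summed to 185.6 to 450.3 CPM in model livers and 264.7 to 434.0 CPM in control livers. Without Lyve1, a hyaluronan receptor gene, the other 9 endothelial markers summed to 128.5 to 242.0 CPM in model livers and 147.2 to 209.1 CPM in control livers. Of 10 stellate cell markers 7 rose and 2 fell (508.9 to 1007 CPM in model, 260.0 to 313.8 CPM in control). Of 7 cholangiocyte markers tested 6 rose and 1 fell (66.2 to 130.7 CPM in model, 40.9 to 61.3 CPM in control), of 7 T and NK cell markers tested 6 rose (12.7 to 32.1 CPM in model, 2.67 to 6.17 CPM in control), and of 4 B and plasma cell markers tested none was called (3.76 to 11.7 CPM in model, 4.92 to 12.6 CPM in control). Gzmb weighed heavily in the T and NK cell sum, at a mean of 15.41 CPM in model livers and 0.2411 CPM in control livers. Spp1 weighed heavily in the cholangiocyte sum, at a mean of 65.69 CPM in model livers and 36.75 CPM in control livers. Both were picked out after their values were seen. Of 8 hepatocyte markers 2, Alb and Ass1, rose and none fell (76170 to 88190 CPM in model, 50950 to 73000 CPM in control). Alb weighed heavily in this sum, at a mean of 52290 CPM in model livers and 29440 CPM in control livers. The higher sum therefore does not show a rise of the hepatocyte markers as a whole. The part of these cells in the changes of the 10 genes was not tested.

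By root mean square distance between centred log2 CPM over all 14 libraries, among 9247 genes with at least 5 CPM in a group, the 2 genes nearest to each of the 10 were found. Ier5 lay nearest to Nfkbia, the NF-kB inhibitor (distance 0.27 log2 units), and then to Casp4 (0.38). Ier3 lay at nearly the same distance from Nr4a1, another early response factor, and from Clec4d, one of the neutrophil markers (both 0.43). The fitted log2 fold change was 7.41 for Ier3, against 7.13 for Nr4a1 and 8.30 for Clec4d. Clec4d was at a mean of only 0.202 CPM in control livers. The prior count of 2 therefore held down its rise, and its distance from Ier3 depends on that setting. Ier2 lay nearest to the interferon-induced Mx2 (0.34) and Gadd45a (0.43), and Klf6 to Tiparp (0.33) and Hilpda (0.35). Klf2 lay nearest to Stk17b (0.25) and Esam, an endothelial adhesion gene (0.29), and Klf4 to Smtn (0.36) and Rgl1 (0.37). Egr2 lay nearest to Fmnl1 (0.38) and Treml2 (0.39), and Egr3 to Timp3 (0.32) and Ifi213 (0.35). The prior count of 2 held down the rises of these 2 EGR genes, so their neighbours depend on it. The fitted log2 fold change was 7.20 for Egr2, against 5.61 for Fmnl1 and 6.06 for Treml2. For Egr3 it was 5.96, against 3.46 for Timp3 and 3.85 for Ifi213. Of the 10 genes, Egr1 lay farthest from its nearest genes, with Mmp9, also a neutrophil marker, at 0.74 and Gadd45b at 0.79. Klf10 lay closest, with the interferon gamma receptor gene Ifngr2 at 0.21 and Sbds at 0.23. The distance runs over both groups, so it holds the difference between groups as well as the variation within them.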

How the data were processed

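Liver RNA in 8 model and 6 control libraries was sequenced. The authors deposited raw read counts per gene, 1 file a library. Reads were aligned with HISAT2 to GRCm39, per the submitters' processing notes. Which program counted the reads, on which strand and with which gene models is not given in the sources used here. Summary lines that name no gene held 27.4% to 45.6% of all entries and stayed out of totals and tests.

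Genes were filtered with filterByExpr (12915 of 55357 kept), scaled with TMM factors and tested with edgeR 4.0.16 in R 4.3.3 (robust quasi-likelihood fit, group as the only term, Benjamini-Hochberg adjustment, call at 0.05). CPM used the TMM factors. Each SE (standard error) was derived from a gene's fold change and its F statistic. Pair ratios used exact permutation tests. Alternatives used DESeq2 1.42.0, limma 3.58.1, other scaling, no filter, a length and GC offset, a replicate block, and fewer libraries. On simulated counts for model against control (12915 genes), 42% of 50 genes changed 2-fold and 94% of 50 changed 4-fold were recovered. In 43 pairs of libraries of a group, none agreed within sampling noise (smallest chi-square per degree of freedom 23.3).

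The members, lists and naming rule were chosen with earlier results of these data known. The rule named all 10 genes, up to 4 called genes of a list at 5 CPM or more, and the 2 nearest profiles of each gene. No gene of the 10 overlaps another gene in the GRCm38 annotation supplied. Intervals and floors cover counting error only.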

Additional observations from a re-analysis of the deposited data

Results flagged for a closer look

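In 3 of 20 groups of libraries (10 genes in 2 groups), 1 library lay apart from the others by Dixon's criterion. For normally distributed values, chance alone meets it in about 1 of 20 groups. Here it was applied to CPM, and the 10 genes share the same libraries. The 3 of 20 therefore cannot be judged against that rate. Egr1 was at 711 CPM in model 2, against 358 CPM in the next model liver, and its log2 fold change without model 2 was 5.73. Ier5 was at 88.5 CPM in model 1, against 54.0 CPM in the next, and its log2 fold change without model 1 was 3.71. Ier2 was at 22.5 CPM in control 1, against 14.1 CPM in the next control liver, and its log2 fold change without control 1 was 3.43. Each of the 3 genes stayed called without that library.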

How the results depend on the processing

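All 9 calls among the 10 genes held in each of 24 alternatives to the settings used, with fold changes in the same direction. Klf10, called without model 4 alone, was also called with both model 3 and model 4 left out (log2 fold change 0.57, adjusted p = 0.0339), and over the fits that left out 1 library its log2 fold change ranged from 0.37 to 0.55. Its lowest value was 0.23, from scaling by library totals. Library totals moved the median of all genes from 0.01 to -0.23 (upper-quartile factors to -0.14) and the calls over all genes to 2533 higher and 3955 lower, against 3437 and 2751. Without the low-count filter that median was 0.29, with 4427 genes higher and 2931 lower. Klf4 had its weakest call with scaling by library totals (log2 fold change 1.09, edgeR adjusted p = 0.0198). The largest shifts among called genes were for Egr2 (6.93 to 7.96) and Egr3 (5.11 with limma-voom, up to 6.37), whose control counts were 5 and 2. The Egr2 to Egr1 difference turned to 0.91 and the Egr1 to Egr3 difference lost its call at 0.89 (adjusted p = 0.145) with a prior count of 0.5. Leaving out 1 library, the Klf4 to Klf10 difference ranged from 0.54 to 0.95, with a call without model 1 (0.92), and the Ier5 to Ier2 difference from 0.56 to 0.81, with a call without model 5 (0.81). The cause of these changes was not tested. Same-numbered model and control libraries did not deviate together (correlations of -0.342 to 0.363 over 6 pairs, and 1 of 6 model libraries correlated best with its own number). The check gave no sign of pairing by number, but it cannot exclude a matched design with a weak shared effect. With the replicate number as a block, Klf10 was at 0.33 (adjusted p = 0.255), 9 of the 10 genes were called, and 2949 genes were higher and 2207 lower. Depth limits Egr3, Klf4 and the control levels of Egr2 most.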

Other observations

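Relatives that did not pass the low-count filter were still seen in some libraries. Klf5, an epithelial family member, had 91 counts spread over all 8 model libraries and 6 counts in 3 of 6 control libraries. Ier5l, the relative of Ier5, had 99 counts in 8 of 8 model and 22 counts in 5 of 6 control libraries. Egr4, the remaining EGR gene, had 1 count in 1 model library and 0 in all control libraries, so it was not detectable at this depth in 13 of the 14 livers. Klf14 likewise had 1 count in all, and Klf17 had 4 counts in 2 model libraries. Wt1, a zinc finger factor related to the EGR family and known from mesothelium, had 41 counts in 7 of 8 model and 14 counts in 2 of 6 control libraries.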
